A study of Mus musculus with 4 samples.

Results

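The 42 host units with the most SRSF1 and SRSF2 peaks in fibroblasts of mouse embryos (MEFs) are described here. A host unit is the transcript or transcript cluster to which the authors assigned a peak, as written in the peak's name. The 42 are the units outside the regions called nongenic that carried 100 or more peaks when both deposited peak lists were summed, out of 8738 such units with a peak. They were chosen by their number of peaks, so that number is given as a description only. Together they held 6383 of 98303 genic peaks, or 6.49% (6.34 to 6.65). Ranges in brackets after a share are 95% intervals by the exact Clopper-Pearson method. They cover counting error alone, and peaks are not independent molecules. The 42 units were set beside the 2906 units with 10 to 99 peaks and, within these, the 251 units with 50 to 99. Just inside the threshold stood the units of Zfc3h1 with 100 peaks, Tpr and Trio with 101 each and Herc2 with 102, with SRSF1 making up 41.6% to 55.9% and 34.3% to 54.5% of their peaks overlapped by the other protein. Just outside stood 1 unit with 97 peaks and 5 with 98, with SRSF1 shares from 37.8% to 50% and 43.9% to 71.1% of peaks overlapped.

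In CLIP-seq, proteins are crosslinked to RNA with ultraviolet light, 1 protein is precipitated, and the bound RNA fragments are sequenced. Of the 4 samples of the series, 2 enter here, each with 1 library and 1 peak list: SRSF1 from the SRSF1 tet-repressible MEFs and SRSF2 from the SRSF2 tet-repressible MEFs, both grown in medium without tetracycline and both precipitated with an antibody to the HA tag. In a tet-repressible line tetracycline turns the SR protein off. The 2 other samples, SRSF1 with a control siRNA and SRSF1 with siRNA targeting SRSF2, were not analysed here. Each protein was measured in its own line, so the protein and the line cannot be told apart, and with 1 library each there is no replicate check and no test between the proteins. The lists held 50983 SRSF1 and 56336 SRSF2 peaks, of which SRSF1 made up 47.5% (47.2 to 47.8). Read depth and RNA level were not given, so a number of peaks is not binding per RNA molecule.

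SRSF1 and SRSF2 belong to the SR proteins, which bind exonic RNA through an RNA recognition domain and help the splicing machinery to recognise exons through a domain rich in arginine and serine. Very long multi-exon transcripts in fibroblasts include those of proteins that link the cytoskeleton, of matrix proteins and of large ubiquitin ligases.

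Of the 42 units, 38 were numbered clusters without a gene name and 4 carried a RefSeq accession. A symbol was matched for 3 of the 4: Dync1h1, Zfhx4 and Col1a1. For the other 39 the likely gene was taken from the order of genes in the GRCm38 annotation. The genes of the same strand between the nearest named units on both sides, and at least 95% as long as the unit, were the candidates, and knowledge of the locus chose among them. This left 1 candidate for 17 of the 42 units. The chosen gene was the candidate closest in length for 35 units and was among the candidates for 41. The exception to the latter is the unit on chromosome 10 from 5151890 to 5326196, whose 1 candidate was another gene. There the nearest named units, Mtrf1l (from 4522713) and Fbxo5 (from 4546760), lay on the plus strand in the lists and on the minus strand in the annotation, in reversed order. Syne1, the neighbour in the reversed order, was therefore taken as the likely gene after the positions had been seen. All gene names below other than those 3 are likely names, and no peak was assigned to an exon, because the annotation at hand is of another build than the mm9 of the lists. All positions are mm9 positions counted from 1.

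The peaks reached almost from end to end of most of these genes. The span from the first to the last peak had a median of 117385 nt, from 15575 (Col1a1) to 557427 nt (Nbea), against 41460 nt in the units with 10 to 99 peaks and 80150 nt in those with 50 to 99. It was a median of 98.6% of the annotated gene length, and over 90% in 33 of 42. The lowest values were those of Ahnak (21.6%), Syne1 (32.9%) and Macf1 (57.8%). In the 522 units with 10 to 99 peaks that have a gene symbol, the median was 89.96% of the annotated gene length. A reach over most of the gene was thus not particular to the 42. Length was used in choosing the candidates, so its match is not independent of the naming.

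The likely genes encode some of the longest messages of the mouse genome. The longest coding transcript had a median of 56.5 exons (5 to 146), against 13 in the 522 units with 10 to 99 peaks that have a gene symbol and 7 over all 21924 protein-coding genes. The median transcript length was 11391 nt, against 3369 and 2547 nt, and the median coding length 9058 nt, against 1632 and 1173 nt. In coding length, 41 of the 42 were in the top 10% of protein-coding genes and 25 in the top 1%. Nedd4, a ubiquitin ligase with a coding length of 2661 nt, was the shortest. Per kb of mature transcript the 42 units had a median of 13.4 peaks, against 5.52 in the named units with 10 to 99. That ratio still contains the number of peaks by which the units were chosen. All 522 comparison units were named by accession, while 38 of the 42 were clusters. These comparisons therefore mix the number of peaks with the kind of unit, and length entered the choice of the likely genes. Of 8 fibroblast markers, Col1a1, Col1a2 and Fn1 were among the 42, and none of the 5 epithelial, 3 blood and 2 endothelial markers was. Krt19 of the epithelial markers had a named unit, with 1 SRSF1 peak; unnamed units may hold others.

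Proteins that link the cytoskeleton formed the largest group, with 8 of the 10 genes of the cytolinker and spectrin list. Dst, dystonin, which connects intermediate filaments, actin and microtubules, had the most peaks of all units, 134 SRSF1 and 214 SRSF2 peaks (chromosome 1, plus strand, 34025655 to 34364737). Syne2, a nesprin of the nuclear envelope, followed with 127 SRSF1 and 145 SRSF2 peaks (chromosome 12, plus strand, 76979327 to 77211808), and its relative Syne1 had 62 and 72 (chromosome 10, plus strand, 5151890 to 5326196). Utrn, the dystrophin homologue utrophin, had 100 SRSF1 and 108 SRSF2 peaks (chromosome 10, minus strand, 12122694 to 12588836). Macf1, which crosslinks microtubules and actin, had 71 and 101 (chromosome 4, minus strand, 123038200 to 123231576). In the units so far SRSF2 peaks outnumbered SRSF1 peaks, and this held for the other 3 of the list too. The spectrins, which form the network under the plasma membrane, were represented by Sptbn1 with 68 SRSF1 and 88 SRSF2 peaks (chromosome 11, minus strand, 30000102 to 30119762) and Sptan1 with 58 and 70 (chromosome 2, plus strand, 29825485 to 29886813). Ahnak, a giant scaffold protein encoded largely by 1 exon, had 58 SRSF1 and 87 SRSF2 peaks (chromosome 19, plus strand, 9074679 to 9093617). Together the 8 units had an SRSF1 share of 43.4% (40.9 to 45.9), below the 47.5% of all peaks. Without Dst, an alternative chosen after seeing the data, the share was 44.8% (42.0 to 47.6), an interval that includes it.

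Actin-based and microtubule-based motors were represented by 2 of the 14 genes of their list. Myh9, the heavy chain of nonmuscle myosin IIA, which drives contraction of stress fibres, had 107 SRSF1 and 114 SRSF2 peaks (chromosome 15, minus strand, 77591040 to 77672540). Dync1h1, the heavy chain of cytoplasmic dynein (chromosome 12, plus strand, 111839714 to 111905034), had 76 and 116. The libraries were near balance in Myh9 and apart in Dync1h1.

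Matrix and endocytic receptor genes supplied 5 of the 23 genes of the matrix list, and the shortest span. Lrp1, a large endocytic receptor, had 98 SRSF1 and 116 SRSF2 peaks (chromosome 10, minus strand, 126975743 to 127058008). Fn1, fibronectin, whose alternative exons are a classic case of regulated splicing, had 92 and 83 (chromosome 1, minus strand, 71632464 to 71699714). Col5a2, a chain of type V collagen, had 99 SRSF1 and 83 SRSF2 peaks (chromosome 1, minus strand, 45432773 to 45559904). The type I collagen chains, the main product of fibroblasts, had 55 SRSF1 and 63 SRSF2 peaks for Col1a2 (chromosome 6, plus strand, 4455732 to 4491243) and 55 and 52 for Col1a1 (chromosome 11, plus strand, 94797584 to 94813158). SRSF1 peaks were the more numerous in Fn1, Col5a2 and Col1a1 and the fewer in Lrp1 and Col1a2. The pooled SRSF1 share of the 5 was 50.1% (46.6 to 53.7), an interval that includes the 47.5% of all peaks.

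Large enzymes of the ubiquitin system, which marks proteins for degradation, formed a further group. Birc6, an inhibitor of apoptosis with ubiquitin-conjugating activity, had 93 SRSF1 and 104 SRSF2 peaks (chromosome 17, plus strand, 74928055 to 75101748). The ligase Huwe1 had 87 and 106 (chromosome X, plus strand, 148237967 to 148369404). Ubr4, a ligase that recognises destabilising N-termini, had the highest excess of SRSF1 among the 42, with 85 SRSF1 and 51 SRSF2 peaks (chromosome 4, plus strand, 138910179 to 139045397). Herc2 had 57 and 45 (chromosome 7, plus strand, 63305837 to 63486680). The ligases Trip12 with 78 SRSF1 and 65 SRSF2 peaks (chromosome 1, minus strand, 84720743 to 84835851) and Nedd4 with 50 and 54 (chromosome 9, plus strand, 72510310 to 72596921) are not in the list and were assigned to this group after their names were known. SRSF1 peaks were the more numerous in Ubr4, Herc2 and Trip12, and SRSF2 peaks in Birc6, Huwe1 and Nedd4.

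Of the 28 genes of the chromatin and transcription list, 4 were among the units. Prrc2c, an RNA-associated protein, had 75 SRSF1 and 77 SRSF2 peaks (chromosome 1, minus strand, 164602804 to 164654992). Trrap, the scaffold of histone acetyltransferase complexes, had the lowest SRSF1 share, with 52 SRSF1 and 96 SRSF2 peaks (chromosome 5, plus strand, 145531966 to 145620286). Zfhx4, a zinc finger homeobox factor (chromosome 3, plus strand, 5218835 to 5415498), had 68 and 76. Kmt2a, a histone H3 methyltransferase (chromosome 9, minus strand, 44611996 to 44689108), had 55 SRSF1 and 60 SRSF2 peaks. Of the 16 genes of the RNA processing list only Smg1, the kinase of nonsense-mediated decay, was among the 42, with 54 and 88 (chromosome 7, minus strand, 125278529 to 125386829). SRSF2 peaks were the more numerous in all 5 of these units. None of the 7 architectural noncoding RNAs of the list reached 100 peaks.

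The remaining units fell outside the lists. Those of signalling proteins were Nf1, neurofibromin, which restrains Ras, with 70 SRSF1 and 70 SRSF2 peaks (chromosome 11, plus strand, 79153524 to 79393328), Trio, a guanine nucleotide exchange factor, with 42 and 59 (chromosome 15, minus strand, 27660582 to 27955591), and the receptor phosphatase Ptprs with 54 and 71 (chromosome 17, minus strand, 56551967 to 56597682). Ogt, the enzyme that attaches O-linked N-acetylglucosamine to proteins, had 57 SRSF1 and 75 SRSF2 peaks (chromosome X, plus strand, 98835490 to 98879642). Htt, huntingtin, had 65 and 73 (chromosome 5, plus strand, 35104502 to 35251783). Only Nf1 had equal numbers of both proteins.

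Proteins of membranes and trafficking were 4932438A13Rik, a bridge-like lipid transfer protein, with 70 SRSF1 and 85 SRSF2 peaks (chromosome 3, plus strand, 36762242 to 36951463), its distant relative Vps13b with 71 and 83 (chromosome 15, plus strand, 35301428 to 35855982), and Nbea, neurobeachin, with 82 and 61 (chromosome 3, minus strand, 55429598 to 55987024). Myof, the membrane repair protein myoferlin, had 51 SRSF1 and 62 SRSF2 peaks (chromosome 19, minus strand, 37974125 to 38117837), and Dnajc13, a chaperone of endosomes, had 48 and 55 (chromosome 9, minus strand, 104054104 to 104149149). Nbea alone of these 5 had more SRSF1 than SRSF2 peaks. Nuclear proteins were Rev3l, the catalytic subunit of DNA polymerase zeta, with 67 SRSF1 and 58 SRSF2 peaks (chromosome 10, plus strand, 39452287 to 39594208), and Phip, a bromodomain protein, with 63 and 57 (chromosome 9, minus strand, 82760080 to 82869020). The cohesin regulator Pds5b had 48 SRSF1 and 58 SRSF2 peaks (chromosome 5, plus strand, 151476490 to 151612228), Tpr of the nuclear pore basket 56 and 45 (chromosome 1, plus strand, 152240660 to 152296349), and Zfc3h1, an adaptor of the nuclear exosome, 48 and 52 (chromosome 10, plus strand, 114822242 to 114869748). SRSF1 peaks were the more numerous in Rev3l, Phip and Tpr, and SRSF2 peaks in Pds5b and Zfc3h1.

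**Figure D1:**
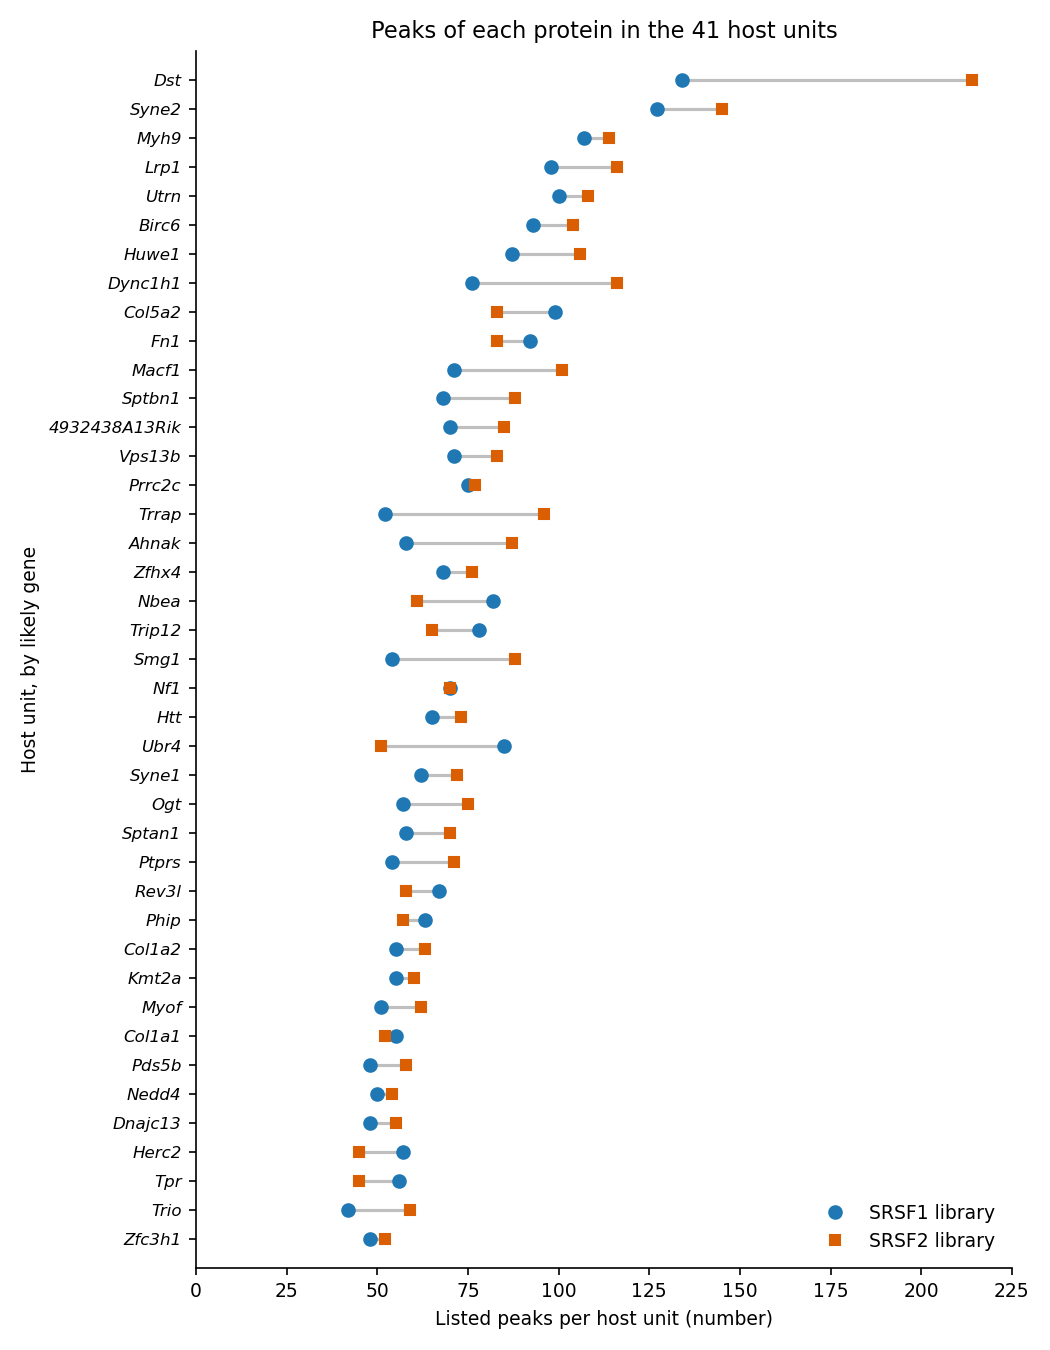
Number of listed peaks (horizontal axis) in the SRSF1 library (circles) and the SRSF2 library (squares) for 41 of the 42 host units, ordered by their sum and labelled by likely gene; grey lines join both values of a unit. Dst reaches 214 SRSF2 peaks, and the square lies to the right of the circle in 30 units.

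SRSF1 and SRSF2 peaks were present in every one of the 42 units in broadly balanced numbers. SRSF2 peaks were more numerous in 31 units, SRSF1 peaks in 10, and 1 was equal. SRSF2 has the longer list, and the share of SRSF1 was above the 47.5% of all peaks in 18 units and below it in 24. The pooled SRSF1 share was 46.9% (45.7 to 48.2), against 47.3% (46.9 to 47.6) in the units with 10 to 99 peaks, and the intervals overlap. Per unit it ran from 35.1% to 62.5% with a median of 46.9%. The SD over the 42 units was 5.58 percentage points, where counting error with 1 common share would give 4.21. In the units with 10 to 99 peaks the corresponding values were 12.9 and 11.7.

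The shares farthest from the rest were those of Ubr4 and Nbea at the high end and Trrap, Smg1, Dst and Dync1h1 at the low end. Ubr4 had an SRSF1 share of 62.5% (53.8 to 70.6) and Nbea of 57.3% (48.8 to 65.6); these 2 of 42 units (4.76%) had an interval wholly above the 47.5% of all peaks. Trrap had 35.1% (27.5 to 43.4), Smg1 38.0% (30.0 to 46.5), Dst 38.5% (33.4 to 43.8) and Dync1h1 39.6% (32.6 to 46.9); these 4 (9.52%) had an interval wholly below. Among all 2948 units with at least 10 peaks, 2.92% had an interval above and 2.92% below. Intervals narrow as peaks are added and were not corrected for the number of units, so the shares of units called are not comparable between units with few and with many peaks. Next in order came Herc2 at 55.9% (45.7 to 65.7), Tpr at 55.4% (45.2 to 65.3) and Trip12 at 54.5% (46.0 to 62.9) at the high end and Ahnak at 40% (32.0 to 48.5) at the low end, with intervals that include 47.5%.

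**Figure D2:**
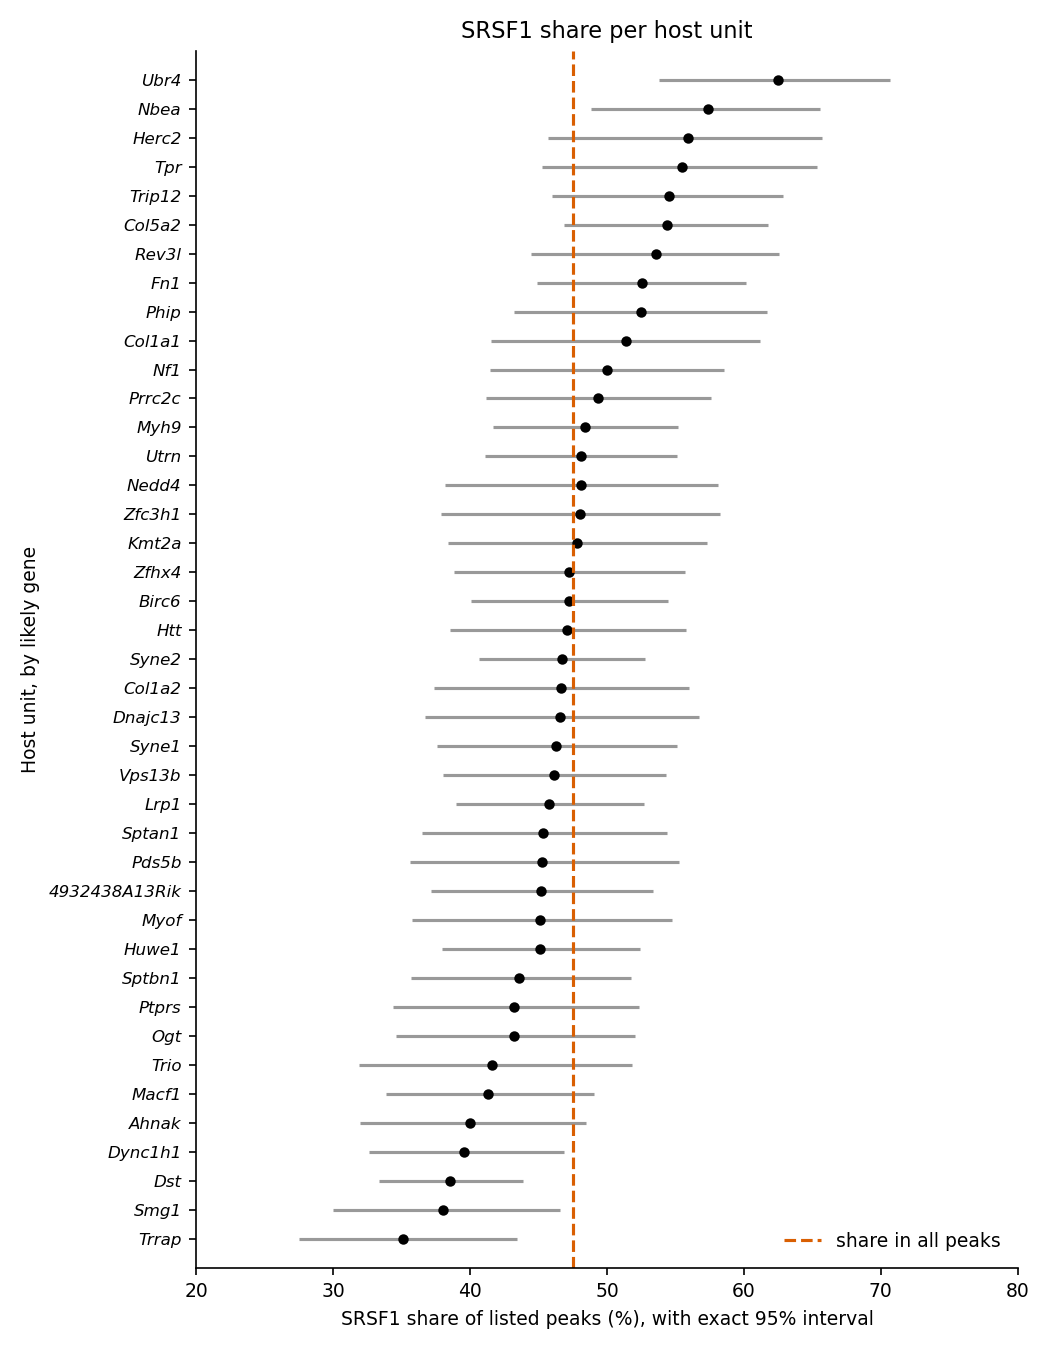
SRSF1 share of the listed peaks of 41 of the 42 host units (points, percent) with exact 95% intervals (lines), ordered by share; the dashed line is the share in all peaks. The intervals of Ubr4 and Nbea lie right of the line at 47.5% and those of Trrap, Smg1, Dst and Dync1h1 left of it.

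Peak density differed widely among the 42 units. Both lists together gave a median of 1.22 peaks per kb of span, against 0.515 in the units with 10 to 99 and 0.789 in those with 50 to 99. The densest were Ahnak with 7.66 peaks per kb, Col1a1 with 6.87, Col1a2 with 3.32, Ogt with 2.99 and Dync1h1 with 2.94. The sparsest were Nbea with 0.257, Vps13b with 0.278, Trio with 0.342, Utrn with 0.446 and Herc2 with 0.564. Utrn, with a span of 466143 nt, and Col1a1, with 15575 nt, thus both passed the threshold at densities far apart. The number of peaks chose the units and enters these values.

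Within the span, peaks lay in dense groups with long empty stretches between them. The median distance between neighbouring peaks of 1 protein was 279.5 nt, and 36.6% of SRSF1 neighbours and 39.7% of SRSF2 neighbours were within 100 nt. In the units with 10 to 99 peaks the distance was 1017 nt and the shares were 25.5% and 29.2%, and in those with 50 to 99 peaks 532 nt, 31.6% and 34.8%. The number of peaks, which chose the units, enters these distances and shares, so the comparison is a description only. Per unit the SRSF1 distance ran from 77.2 nt in Myh9 to 2558 nt in Trio, and the SRSF2 distance from 68.5 nt in Myh9 to 3024 nt in Herc2. The largest stretch without a peak of either protein was 90106 nt in Nbea, 83146 nt in Utrn, 78908 nt in Trio and 74387 nt in Dst, and exceeded 50 kb in 7 units. In Dst 1 peak lay in the first 10% of the span and 37 in the last 10%.

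**Figure D3:**
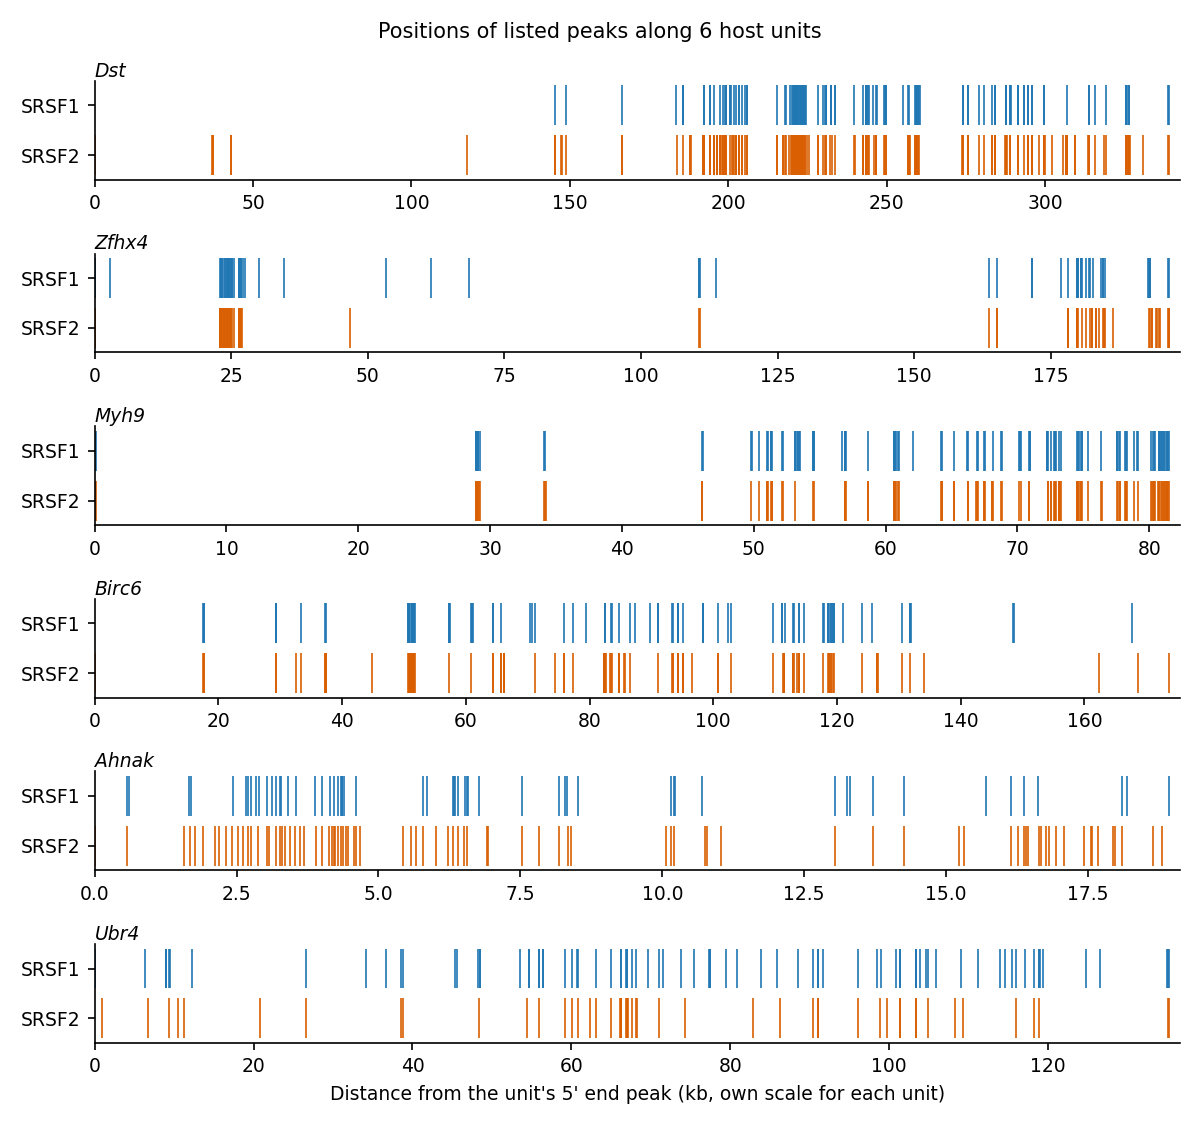
Midpoints of listed SRSF1 peaks (upper ticks) and SRSF2 peaks (lower ticks) along 6 host units, as distance in kb from the first peak in the direction of transcription, with a separate scale for each unit. Ticks of both proteins gather in many of the same places, with dense blocks in Zfhx4 and Birc6 and a dense 3′ end in Myh9. In Dst several SRSF2 ticks lie before the first SRSF1 tick at 145 kb. In Ubr4 the proteins lie farther apart, with a median of 205.5 nt from an SRSF1 peak to the nearest SRSF2 midpoint. In Ahnak ticks are spread unevenly over the span of the unit, which is 21.6% of the likely gene.

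Peaks were fewer at the 5′ end. Of all peaks in the 42 units, 5.55% (5.00 to 6.14) lay in the first 10% of the span and 13.5% (12.7 to 14.4) in the last 10%. The first 10% held fewer peaks than the last in 31 units and more in 10. In the units with 10 to 99 peaks the shares were 16.8% and 18.0%, and in the 251 units with 50 to 99 peaks 11.9% and 14.3%. The span is set by the outermost peaks, so with few peaks a larger part of them lies at the ends by construction, and the comparison across classes carries that. Both proteins showed the same order, with 4.94% and 13.3% of SRSF1 peaks and 6.08% and 13.8% of SRSF2 peaks in the first and last 10%. Myh9 had 5 peaks in the first and 74 in the last 10%, Zfhx4 5 and 55, and Ogt 10 and 38. Syne2, with 29 and 10, Nbea, with 14 and 2, and Zfc3h1, with 27 and 16, had the opposite order.

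The densest 1 kb of every unit held peaks of both proteins. These stretches, chosen for their number of peaks, held 7 to 27 peaks. Sptbn1 had 13 SRSF1 and 14 SRSF2 peaks at 30038377 to 30039288 on chromosome 11, and Birc6 had 12 and 14 at 74978784 to 74979761 on chromosome 17. In Myh9 it was the very 3′ end, 77591040 to 77591865 on chromosome 15, with 12 and 14. Col1a1 had 10 and 12 at 94812048 to 94813066 on chromosome 11, which is 20.6% of its peaks, the largest part in any of the 42. In Trip12 (84790109 to 84790893 on chromosome 1) it held 13 and 11 peaks and in Prrc2c (164635423 to 164636429 on chromosome 1) 12 and 13. The stretch lay in the last 10% of the span in 9 units.

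The groups of peaks were about as many as the exons of the likely gene. Peaks of both proteins on 1 unit were joined into islands wherever they were separated by at most 100 nt. The 42 units had 2356 islands, a median of 51.5 per unit (32 to 111), and a median of 0.925 islands per exon of the longest coding transcript. In the 522 named units with 10 to 99 peaks the median was 0.786 per exon. Those units were all named by accession, unlike most of the 42, and the number of peaks, which chose the 42, bears on the number of islands. Over the 42 units the number of islands and of exons had a Spearman correlation of 0.808; the units share both libraries, and long genes have more of everything counted here. Dst had 111 islands and 103 exons, Myh9 42 and 41, Fn1 47 and 46, Utrn 60 and 74, and Smg1 58 and 63. The highest ratios were those of Ahnak with 39 islands and 5 exons, Zfhx4 with 48 and 11, and Kmt2a with 62 and 36. Exon lengths were not compared. Syne1 had 57 islands and 146 exons, with peaks over part of the gene only. Whether an island lies on an exon was not examined, since exon positions in mm9 were not at hand.

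**Figure D4:**
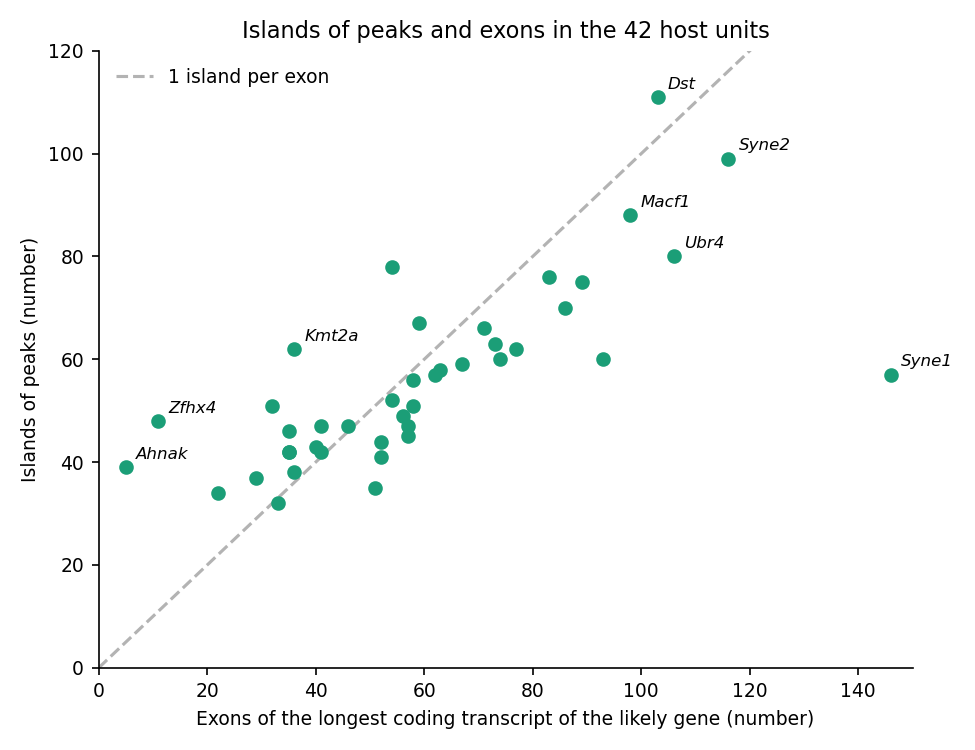
Number of islands of peaks (vertical axis, peaks of both proteins joined over gaps of up to 100 nt) against the number of exons of the longest coding transcript of the likely gene (horizontal axis) for the 42 host units; the dashed line marks 1 island per exon. Most points lie near the line, with Ahnak, Zfhx4 and Kmt2a above it and Syne1 at 146 exons below it.

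Most islands held both proteins. Of the 2356 islands, 1352 (57.4%, 55.4 to 59.4) had peaks of SRSF1 and SRSF2, and 34.4% were a single peak and could hold only 1 protein. In the units with 10 to 99 peaks 37.8% held both and 52.5% were single peaks, and in those with 50 to 99 the shares were 50.03% and 40.6%. The nearest SRSF2 midpoint to an SRSF1 peak was a median of 10.4 nt away, as the median over the 42 units, and the nearest SRSF1 midpoint to an SRSF2 peak 15.2 nt. The corresponding distances in the units with 10 to 99 peaks were 47.5 and 67 nt, and 14.5 and 22.5 nt in those with 50 to 99. The units closest in number of peaks were thus also close in these distances. The number of peaks, which chose the units, bears on the island shares and on these distances, so both comparisons are descriptions only.

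The proteins lay on the same sites in the 42 units more often than in units with fewer peaks. Peaks counted as overlapping when they had 1 nt or more in common and the same strand. SRSF2 peaks overlapped 1754 of 2995 SRSF1 peaks, 58.6% (56.8 to 60.3), against 42.6% (42.0 to 43.1) in the units with 10 to 99 peaks and 51.8% (50.7 to 52.9) in those with 50 to 99. SRSF1 peaks overlapped 52.5% (50.8 to 54.2) of SRSF2 peaks, against 38.4% (37.9 to 38.9) and 47.4% (46.4 to 48.5). The intervals do not meet, and no test was run, since peaks of 1 unit are not independent and the number of peaks, which chose the units, bears on the chance of an overlap. Over single units the median was 55.0% of peaks of both proteins overlapped, against 36.5% with 10 to 99 peaks and 50% (48.3 to 51.9, order-statistic interval) with 50 to 99. Of the units with 10 to 99 peaks, 15.4% were above the median of the 42.

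Density and score were both higher in the 42 units and were set beside the overlap. At 1 to 2 peaks per kb, SRSF2 overlapped 57.1% (54.3 to 59.9) of SRSF1 peaks in 16 of the 42 units and 51.5% (50.2 to 52.7) in 440 units with 10 to 99 peaks. At 2 to 4 peaks per kb it was 67.8% (64.2 to 71.2) in 10 units and 59.2% (57.1 to 61.3) in 154, and under 1 peak per kb 52.1% (48.8 to 55.3) in 14 units and 38.3% (37.7 to 38.9) in 2257. At 4 or more peaks per kb only Ahnak and Col1a1 were left of the 42, with 69.0% (59.6 to 77.4), against 68.5% (64.8 to 72.0). For SRSF2 the shares were 48.6% (45.4 to 51.7) and 35.0% (34.4 to 35.5) under 1 peak per kb, 50.8% (48.2 to 53.5) and 45.3% (44.2 to 46.5) at 1 to 2, 59.7% (56.3 to 63.1) and 51.4% (49.4 to 53.4) at 2 to 4, and 55.4% (46.7 to 63.8) and 59.8% (56.2 to 63.3) at 4 or more. Both shares were higher in the 42 units in the lower 3 density classes, and the intervals overlapped in the densest. The classes are wide and do not equalise density. Under 1 peak per kb the 42 units began at 0.257 and the units with 10 to 99 peaks at 0.0148. Units with 50 to 99 peaks were not set apart in the density or score classes, and the part of density in the difference was not tested. The median score was 11 for SRSF1 and 12 for SRSF2 against 8 and 9 with 10 to 99 peaks and 9 and 10 with 50 to 99; the score is the authors' own whole number per peak, and what it measures was not stated. Each list was cut into 20% classes by score, and peaks with the same score were ordered by their place in the list. Peaks of 1 score can therefore fall in neighbouring classes. In the highest 20% of SRSF1 peaks by score, 74.6% (72.2 to 76.9) were overlapped in the 42 units and 67.1% (66.0 to 68.1) in the units with 10 to 99. In the next 20% the values were 50.5% (47.1 to 54.0) and 47.9% (46.7 to 49.0), in the middle 20% 46.6% (41.8 to 51.4) and 37.3% (36.2 to 38.4), and in the 20% below that 34.0% (28.8 to 39.4) and 30.8% (29.7 to 31.9). For SRSF2 the highest 20% gave 65.1% (62.6 to 67.5) and 62.3% (61.2 to 63.3), the next 45.8% (42.7 to 48.9) and 43.1% (42.0 to 44.2), the middle 42.8% (38.2 to 47.4) and 33.2% (32.1 to 34.2), and the one below 31.8% (26.5 to 37.4) and 26.5% (25.5 to 27.5). In the lowest 20%, where the 42 units had only 44 SRSF1 and 84 SRSF2 peaks, the values were 13.6% (5.17 to 27.4) and 23.4% (22.2 to 24.6) for SRSF1 and 35.7% (25.6 to 46.9) and 20.2% (19.2 to 21.3) for SRSF2. RNA level was not measured.

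Overlap varied widely among the 42 units. It was highest in Myh9, where 84 of 107 SRSF1 and 89 of 114 SRSF2 peaks were overlapped (78.3% of both), followed by Col1a1 (75.7%), Nedd4 (74.0%), Ptprs (72%) and Col1a2 (69.5%). The lowest were Kmt2a, with 19 of 55 and 19 of 60 (33.0%), Herc2 (34.3%), Macf1 (37.8%), Syne1 (38.1%) and Ubr4 (38.2%). The order was not that of density: Utrn, among the sparsest units, reached 68.3%, and Ahnak, the densest, 51.0%. Across the 42 units density and overlap had a Spearman correlation of 0.402, given as a description. Of the matrix genes, Fn1 (58.9%), Lrp1 (58.9%) and Col5a2 (67.0%) lay above the median of the 42, as did both type I collagens. The 5 matrix units had a median overlap of 67.0% at 2.60 peaks per kb, the 2 motors 66.2% at 2.83 peaks per kb, the 17 units in no list 56.6% at 0.937 peaks per kb, the 8 cytolinkers and spectrins 51.8% at 1.10 peaks per kb and the 4 chromatin and transcription units 40.4% at 1.58 peaks per kb. The 2 motors were far apart, with 78.3% in Myh9 and 54.2% in Dync1h1, which lay below the median of the 42. By these medians the matrix and motor groups had the highest overlap and were also the densest. The part of density in the difference was not tested.

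**Figure D5:**
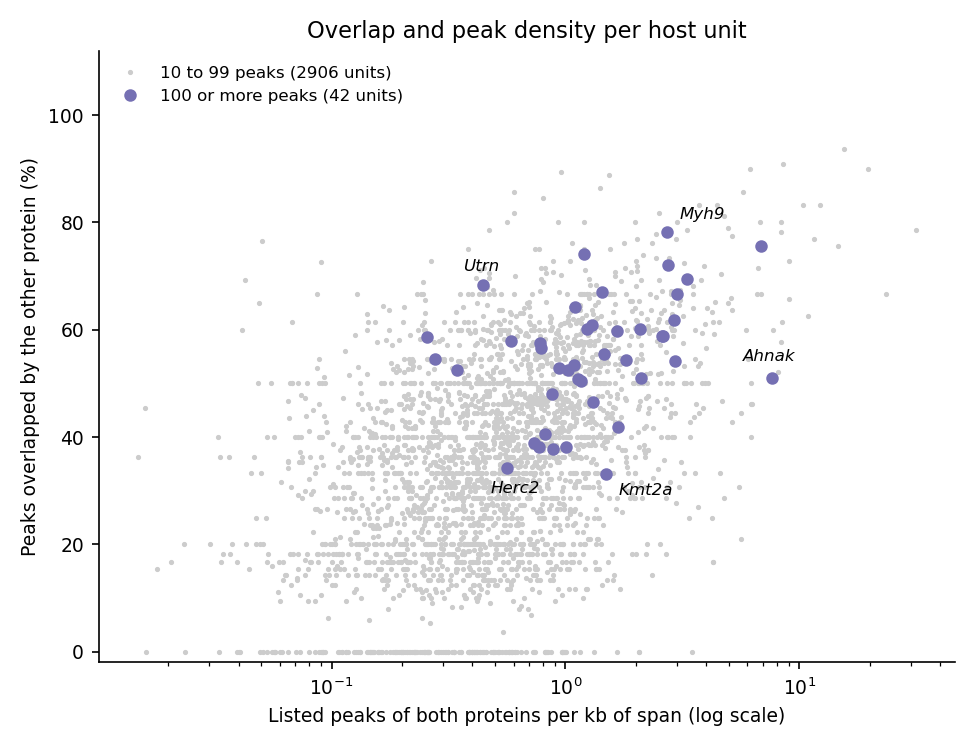
Share of a unit's peaks that the other protein overlapped (vertical axis, percent, peaks of both proteins) against listed peaks per kb of span (horizontal axis, log scale) for the 42 units (large points) and the 2906 units with 10 to 99 peaks (small points). The large points lie between 33.0% (Kmt2a) and 78.3% (Myh9), while small points reach down to 0.

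The peak with the highest score in a unit was mostly overlapped by the other protein, but seldom by that protein's own highest peak. The SRSF1 peak with the highest score was overlapped by an SRSF2 peak in 41 of 42 units, or 97.6% (87.4 to 99.9). The SRSF2 peak with the highest score was overlapped by an SRSF1 peak in 36, or 85.7% (71.5 to 94.6). In the units with 10 to 99 peaks these shares were 64.9% and 62.4%. In those with 50 to 99 they were 87.6% (82.9 to 91.5) and 86.5% (81.6 to 90.4), so the SRSF2 value was no lower there. The intervals of these units and of the 42 overlap for both proteins. The highest score of a unit had a median of 27 (SRSF1) and 29 (SRSF2) in the 42, against 12 and 14 with 10 to 99 peaks. The number of peaks bears on that score, and its part in the overlap was not tested. The top peaks of both proteins overlapped each other in 9 of 42 units (21.4%), against 21.2% in the units with 10 to 99 and 19.5% in those with 50 to 99. In 10 of the 42 units several peaks of 1 protein shared the highest score, and the one with the lowest coordinate was taken. With other choices among the tied peaks, the common top site was found in 8 to 11 units and the top SRSF2 peak was overlapped in 34 to 37. In Dst the common top site was 34274665 to 34274708 for SRSF1 (score 29) and 34274668 to 34274704 for SRSF2 (score 32). In Col1a2 it was close to the 5′ end, 4455832 to 4455901 (score 38) and 4455757 to 4455902 (score 37). Further units with a common top site were Lrp1, Vps13b, Nf1, Pds5b and Nedd4, and Ubr4 with 1 of its 2 tied SRSF2 peaks. The highest score in the 42 units was 73, at an SRSF1 peak of Myh9 from 77597166 to 77597282. The top SRSF2 peak of Myh9 lay elsewhere, from 77643404 to 77643487 (score 48).

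Within the spans of the 42 units no peak of another unit lay on the same strand, and 10 peaks lay on the opposite strand, within 5 of the units, 4 of them opposite to Zfhx4. Peaks were 21 nt (SRSF1) and 20 nt (SRSF2) wide in the median, against 19 nt for both in the units with 10 to 99. The lowest score listed in a unit ran from 5 to 18 for SRSF1 and from 5 to 20 for SRSF2 across the 42, with Col1a1 highest in both, although the lists go down to 4. Missing peak numbers made up 23.1% of the SRSF1 and 21.6% of the SRSF2 numbering in the 42 units, against 18.6% and 20.5% in the units with 10 to 99, so the counts given here are of listed peaks.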

How the data were processed

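The deposited files are 2 peak lists, 1 for each protein, giving each peak a position, name, score and strand. Per the submitters' processing notes the build is mm9. Aligner, caller and cutoff were not given in the sources used here. A score deposited by the authors for each peak is a whole number of at least 4 without a stated meaning, and served only to order or select peaks inside its own list. Start positions were made 1-based.

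Peaks of both lists were summed per host unit, the peak name without its final number. Spans run from the first to the last peak, distances are between midpoints, and densities are peaks per kb of span. Names, strand, order, gene length and exon counts came from GENCODE M21 and a RefSeq table, both on GRCm38; no coordinate was taken from them. Overlaps gave the same counts as bedtools 2.31.1 in both lists and were tested on simulated data. Intervals were computed with scipy 1.17.1. Depth per sample was not given, which limits precision to the counts of peaks. Units are named by the likely gene, except 1 that is not reported here. Singled out are the 10 with most peaks, the 5 highest and lowest by SRSF1 share, density, overlap and span, those at the threshold, those with an accession and those in the gene lists; Syne1 was named outside the rule, and other examples were chosen after their values were seen. The units, lists and rules were chosen with earlier results of these data known, so no list is independent evidence. Alternatives were other thresholds, the upper 50% by score, merged units and other definitions of overlap, span and neighbour.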

Additional observations from a re-analysis of the deposited data

How the results depend on the processing

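With 1 library per protein no result here has replicate error. No paired analysis was possible because each protein has 1 library. A value was taken as stable where it stayed within its own 95% interval. This held for 27 of 41 alternatives, including all 4 run for the SRSF1 share, all 4 for the median span and all 5 for peaks per kb. Merging units that overlap on the same strand gave the same values, since no other unit had a same-strand peak in these spans. Merging could therefore not move any value and says nothing about stability. It is nevertheless counted in the 27 of 41, and among the alternatives for the SRSF1 share, the median span and peaks per kb. The share of all genic peaks follows the choice of units and was 10.9% with 80 or more peaks (91 units), 3.22% with 150 or more (16 units) and 10.3% when each list was limited to its upper 50% by score. With 150 or more peaks, 60.9% of SRSF1 peaks were overlapped, the distance between neighbours was 219 nt and 11.6% of peaks lay in the last 10% of the span; the cause was not tested. That distance was 335 nt in the upper 50%, where fewer peaks remain, and 48 nt with both lists together. Requiring 50% of the shorter peak gave an overlap of 56.4% (SRSF1) and 50.6% (SRSF2), and midpoints within 50 nt gave 73.0% and 66.9%. The median number of islands was 62 with gaps of up to 50 nt and 46.5 with up to 200 nt, settings chosen after seeing the data.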
